A study of Mus musculus with 32 samples.

Results

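Gnat1, Glod5, Scml2, Serpinb9, Slco5a1 and Trim7 were followed as a set of genes taken to rise from low levels when CTCF is lost, and compared with loss of RAD21, a Chd4 hairpin and re-supply of CTCF. The 6 genes were matched by gene name among 17440 genes listed in at least 1 of 5 tables of normalised counts. They were chosen by their normalised counts after IAA in CTCF AID cells, with earlier results of these data in view, so their values under CTCF loss are given as a description. The values go against that label for 3 of them. Trim7 was not called higher in any of the 3 IAA-treated groups of CTCF AID cells without overexpression, and Scml2 and Slco5a1 were not low before treatment, at 155 and 281 and at 166 and 176 normalised counts outside serum.

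The data are RNA sequencing of polyadenylated RNA from E14, a mouse embryonic stem cell line, in 32 libraries that form 16 groups of 2. CTCF AID cells carry an auxin-inducible degron, a tag by which auxin triggers destruction of the tagged protein, on CTCF. They were sampled at 0, 12 and 24 h of 500 uM indole-3-acetic acid (IAA), and at 0 and 12 h in libraries labelled as serum condition. RAD21 AID cells were sampled at 0, 12 and 24 h of 1 uM 5-Ph-IAA, a different auxin. CTCF AID cells overexpressing a control, wild-type CTCF or mutated CTCF were sampled without IAA and with 12 h of IAA, and CTCF AID cells with a control hairpin or a Chd4 hairpin were sampled with no IAA named in their labels. The RAD21 AID cells thus differ from the others in the tagged protein and in the auxin. The labels give neither the number of clones, nor the mutation in CTCF, nor whether the 2 libraries of a group came from separate cultures, so p-values measure only the spread between these libraries.

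CTCF is a zinc finger protein that binds DNA and halts cohesin, the ring complex that extrudes chromatin loops, so that loop ends and the borders of topological domains form at its sites. RAD21 is the cohesin subunit that closes the ring. CHD4 is the nucleosome-remodelling ATPase of the NuRD complex, which represses many genes in embryonic stem cells. The 6 genes have unrelated textbook roles: Gnat1 encodes the rod transducin alpha subunit of the retina, Glod5 a glyoxalase-domain protein, Scml2 a Polycomb-group protein best known from the male germline, Serpinb9 an inhibitor of granzyme B, Slco5a1 a member of the organic anion transporter family and Trim7 a tripartite-motif ubiquitin ligase that binds glycogenin.

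In the GENCODE M21 annotation on GRCm38, all 6 genes are protein-coding and lie apart from each other. Gnat1 occupies chromosome 9 from 107674474 to 107679712 on the minus strand, and Glod5 chromosome X from 8004200 to 8018492 on the minus strand. Scml2 lies on chromosome X from 161117193 to 161258213 on the plus strand. Serpinb9 lies on chromosome 13 from 33003250 to 33017957 on the plus strand, inside a cluster of clade B serpins. Slco5a1 spans chromosome 1 from 12866549 to 12992650 on the minus strand, and Trim7 chromosome 11 from 48826140 to 48852209 on the plus strand. Trim7 is the least certain to count: 6.46% of its 50-base words recur in transcripts of other genes, most often Cdk2ap1, and its exons overlap Gm12184 by 140 bases and Gm16170 by 491 bases on the opposite strand. For the other 5 genes the shared part was between 0 and 1.89%.

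RefSeq promoter entries (GRCm38.p6) matched 3 of the 6 genes, and the 250 bases before the start are shown for Serpinb9, which was higher with IAA in all 3 tables of CTCF loss, and for Scml2, the member that also changed with RAD21 and Chd4. Both are on the plus strand and written 5′ to 3′, and capitals mark the letters GCGTG.
Serpinb9, chr13:33004291-33004540: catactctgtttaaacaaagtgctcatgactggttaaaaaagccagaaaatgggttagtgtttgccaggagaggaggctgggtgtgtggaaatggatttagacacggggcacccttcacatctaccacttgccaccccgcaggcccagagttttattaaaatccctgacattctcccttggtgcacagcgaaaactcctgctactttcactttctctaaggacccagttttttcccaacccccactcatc
Scml2, chrX:161162500-161162749: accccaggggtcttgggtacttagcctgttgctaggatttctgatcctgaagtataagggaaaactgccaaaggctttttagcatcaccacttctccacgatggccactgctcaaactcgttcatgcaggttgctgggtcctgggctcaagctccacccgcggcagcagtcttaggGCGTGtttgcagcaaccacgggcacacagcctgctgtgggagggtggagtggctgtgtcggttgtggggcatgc
Both entries belong to an annotated transcript start that lies inside the gene's outer bounds. A core of the CTCF motif (CCA, any 2 bases, AG, any 2 bases, GGC) was searched on both strands in the 300 bases of each entry, and was in neither of these nor in the 2 entries of Trim7. It occurs in 2.43% of 32851 promoters. GCGTG, the core to which the aryl hydrocarbon receptor binds, was likewise searched on both strands and found once, in Scml2 74 bases before the start, and 32.4% of all promoters hold it. A match or its lack describes these letters in this window only.

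In CTCF AID cells, Gnat1 had normalised counts of 5.92 and 10.02 at 0 h, 148 and 138 at 12 h, and 155 and 147 at 24 h. Its log2 difference was 4.04 (SE 0.28) at 12 h and 4.12 at 24 h, on the log2(value + 1) scale used for all differences. Thus nearly the whole difference was present at 12 h, and the 2 treated groups overlapped.

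Glod5 had 8.28 and 5.09 normalised counts at 0 h, 92.6 and 87.9 at 12 h, and 141 and 133 at 24 h. Unlike Gnat1, its 24 h libraries all lay above its 12 h libraries, and its log2 difference went from 3.60 (SE 0.28) to 4.20. Serpinb9 behaved similarly, with 55.5 and 42.2 at 0 h, 395 and 379 at 12 h, and 557 and 537 at 24 h. Its log2 difference was 2.97 (SE 0.16) at 12 h and 3.47 at 24 h. Slco5a1 had 166 and 176 normalised counts at 0 h, 703 and 666 at 12 h and 753 and 711 at 24 h. The log2 difference of Slco5a1 was 2.00 (SE 0.09) at 12 h, the smallest of these 4 genes, and 2.09 at 24 h.

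Scml2 had 155 and 281 normalised counts at 0 h, 341 and 311 at 12 h, and 353 and 343 at 24 h. The 0 h libraries differed from each other by more than the treated libraries did, and the log2 difference of 0.64 (SE 0.25) at 12 h did not pass the threshold of an adjusted p under 0.05. Without the second 0 h library Scml2 differed by 1.07 at 12 h and 1.16 at 24 h and passed, and without the first by 0.21 and 0.31. Trim7 had 136 and 149 at 0 h, 66.9 and 220 at 12 h, and 57.1 and 61.6 at 24 h. One of the 12 h libraries was thus above and the other below both 0 h libraries, and at 24 h both were lower, by a log2 difference of -1.25 (SE 0.48) that also missed the threshold. Without the second 12 h library Trim7 was lower at 12 h too, by -1.08, and passed. In all, 4 of the 6 genes were called at 12 h, beside 17.8% of the 13699 genes tested, and the same number at 24 h, beside 22.5%. The rule used these contrasts, so nothing is read from these counts.

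**Figure D1:**
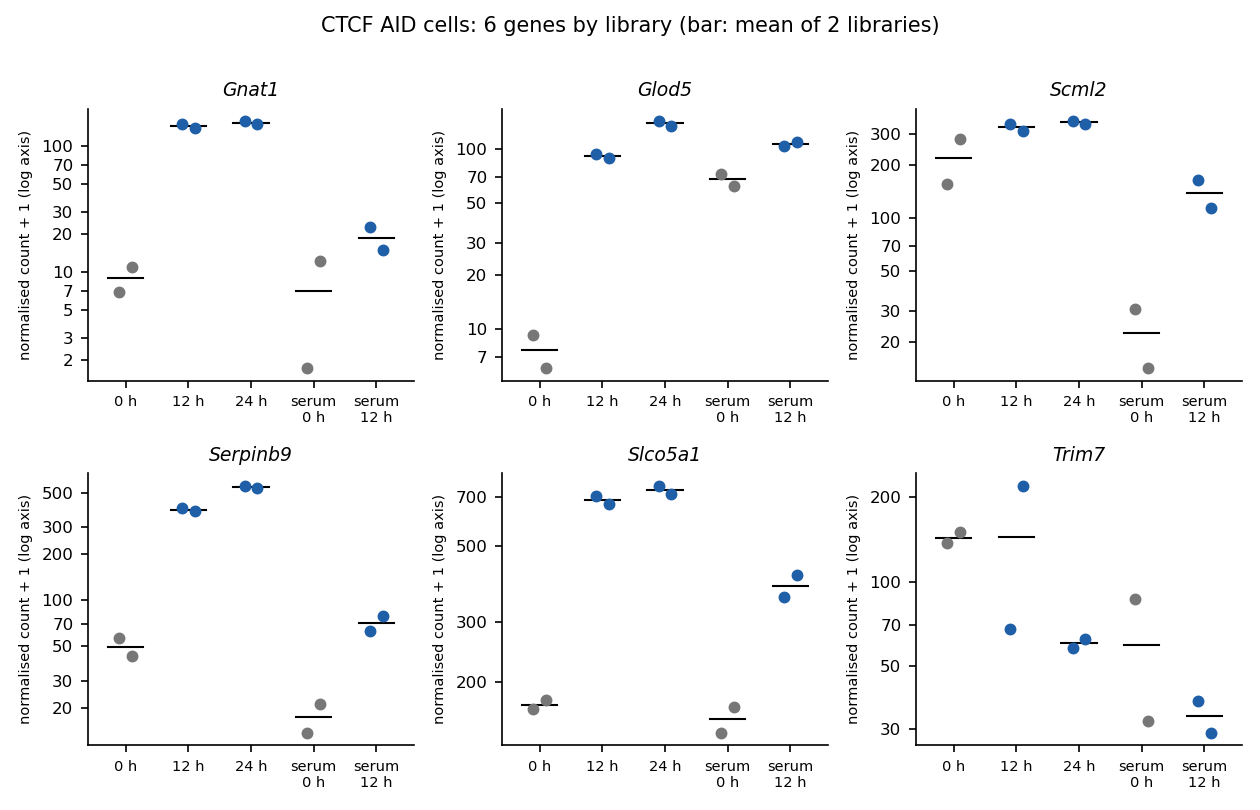
Normalised count plus 1 (log axis) of the 6 genes in each CTCF AID library at 0, 12 and 24 h of IAA and in serum at 0 and 12 h; points are libraries, the bar is the mean of 2, grey is without and blue with IAA. Gnat1, Glod5, Serpinb9 and Slco5a1 lie far higher at 12 and 24 h, whereas Trim7 spreads from 66.9 to 220 at 12 h.

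The starting levels and the sizes differed in the libraries labelled serum. Gnat1 had 0.722 and 11.3 normalised counts without IAA and only 21.5 and 13.9 after 12 h. Glod5 was already at 71.5 and 61.5 and reached 102 and 108, a log2 difference of 0.66 (SE 0.17). The treated groups of these 2 genes still lay above their own controls, with smaller log2 differences than in the other CTCF AID table. Across the 2 tables, which were normalised separately, the difference between them was not tested.

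Scml2 showed the reverse order. Its serum libraries held 29.6 and 13.2 normalised counts without IAA and 163 and 114 with it, a log2 difference of 2.72 (SE 0.38). Serpinb9 went from 12.7 and 20.1 to 62.5 and 77.5, and Slco5a1 from 141 and 168 to 354 and 411, with log2 differences of 2.05 (SE 0.30) and 1.30 (SE 0.13). Trim7 had 86.1 and 30.8 without IAA and 36.6 and 28.1 with it, so the groups overlapped. Here too 4 of 6 genes were called, all higher, beside 17% of 14494 genes tested. The members called in serum were Glod5, Scml2, Serpinb9 and Slco5a1, so Scml2 took the place of Gnat1. Without a mean trend in the variance 0 of the 6 were called in serum. Without the second serum library at 0 h, Gnat1 differed by 3.41 and Trim7 by -1.40, and both passed. The call of Glod5 was lost without that library or either treated one, that of Scml2 without the first treated and that of Serpinb9 without the second treated library. The labelled growth protocol describes serum-free medium for all libraries, so the medium of these 4 is known only from their label.

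With RAD21 degradation Glod5, Serpinb9, Slco5a1 and Trim7 did not pass the test at either time, and Scml2 passed at 12 h. In RAD21 AID cells 5 of the 6 genes were listed, Gnat1 being the one not listed, and all 5 passed the filter on low values. Serpinb9 had 36.5 and 33.7 normalised counts at 0 h, 44.1 and 45.0 at 12 h, and 36.4 and 25.7 at 24 h. Its log2 difference was 0.34 (SE 0.28, limma adjusted p = 0.474) at 12 h and -0.19 (SE 0.28, adjusted p = 0.699) at 24 h. Slco5a1 had 84.0 and 115, then 68.2 and 91.3, then 62.2 and 97.2. All 3 groups of Slco5a1 overlapped, and differed from 0 h by -0.31 (SE 0.29, limma adjusted p = 0.517) and -0.33 (SE 0.29, adjusted p = 0.495).

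Glod5 remained low in RAD21 AID cells, at 12.5 and 15.7 normalised counts at 0 h, 8.32 and 10.6 at 12 h, and 8.94 and 17.0 at 24 h. Its log2 differences of -0.53 (limma adjusted p = 0.509) and -0.17 (adjusted p = 0.854), each with an SE of 0.49, did not pass the threshold. Trim7 had 78.1 and 87.9 at 0 h, 78.9 and 51.1 at 12 h, and 77.6 and 236 at 24 h. The difference at 24 h, 0.70 (SE 0.49, limma adjusted p = 0.382), rests on the second 24 h library: without the first 24 h library it was 1.497 and passed (adjusted p = 0.0471), and without the second it was -0.09.

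Scml2 rose at 12 h of RAD21 degradation. It had 635 and 678 normalised counts at 0 h, 1030 and 871 at 12 h, and 637 and 809 at 24 h. Both 12 h libraries lay above both 0 h libraries, a rise by 0.53 on the log2 scale (SE 0.13, limma adjusted p = 0.0441), and the 24 h libraries overlapped those of 0 h (0.13, adjusted p = 0.562). The 12 h call was lost on leaving out any 1 of the 4 libraries compared, with adjusted p between 0.082 and 0.191, and also without a mean trend in the variance (adjusted p = 0.133). Thus 1 of the 5 tested genes was called at 12 h, beside 13% of 13738 genes tested, and 0 of 5 at 24 h, beside 13.7%. At 24 h the unadjusted p of each of the 5 lay between 0.193 and 0.744.

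In the same RAD21 libraries at 12 h, 6 of 15 tested germline genes were called higher and 1 lower, beside 13% of all genes. Slc25a31 was up by 1.86, Mael by 1.41, Dazl by 1.06 and Asz1 by 0.99 on the log2 scale. At 24 h 1 of the 15 was higher and 0 lower, beside 13.7%. With 12 h of IAA in CTCF AID cells without serum or overexpression, 0 of 13 tested germline genes were higher and 3 lower (Dmrt1, Sycp3 and Piwil2). All genes called there made up 17.8%. In serum 2 were higher and 0 lower, beside 17%, and in the overexpression control 3 higher and 0 lower, beside 25.3%. Apart from the RAD21 count at 12 h, which lay above it, these few calls lie near the share over all genes. The difference between tables was not tested. Of 19 tested Polycomb repressive complex 1 and SCM genes, 2 were higher (Cbx8 and Rnf2) and 1 lower (Cbx7) at 12 h of RAD21 degradation, beside 13% of all genes.

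The Chd4 hairpin moved the set in both directions. Chd4 itself had 9923 and 9526 normalised counts with the control hairpin and 3379 and 3729 with the Chd4 hairpin, differing by -1.45 on the log2 scale (SE 0.06, limma adjusted p = 4.95e-06). Gnat1 was not listed in this table. Of the 5 genes tested, Scml2 and Trim7 were called higher and Glod5 and Serpinb9 lower, while 67.4% of all 15499 genes tested were called. A share of 4 in 5 has to be read against that background.

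Scml2 had 297 and 233 normalised counts with the control hairpin and 1912 and 1917 with the Chd4 hairpin. The rise by 2.86 on the log2 scale (SE 0.12, limma adjusted p = 5.21e-06) was the largest of the 5 and held on leaving out each library in turn (2.68 to 3.03). Trim7 had 27.5 and 106 in the control and 299 and 338 with the hairpin, up by 2.53 on the log2 scale (SE 0.54, limma adjusted p = 0.00534). The groups of Trim7 did not overlap although its control libraries differed widely, and its call was lost without either of the Chd4 hairpin libraries (adjusted p = 0.122 and 0.137) and without a mean trend (adjusted p = 0.0545). Gm16170, the antisense transcript whose exons overlap Trim7, went from 11.2 and 10.6 to 70.8 and 58.5. Since strand use in counting is not given, reads within the 491 shared exonic bases cannot be assigned to 1 of the 2 genes. The exons of Trim7 cover 7597 bases.

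Glod5 fell from 76.1 and 55.1 to 19.3 and 22.4, differing by -1.59 on the log2 scale (SE 0.28, limma adjusted p = 0.00223). Serpinb9 fell from 22.4 and 41.3 to 5.52 and 5.77, differing by -2.24 on the log2 scale (SE 0.42, limma adjusted p = 0.00293). Neither group pair overlapped, and both calls narrowly missed the threshold without the first Chd4 hairpin library (adjusted p = 0.0517 and 0.0524). Slco5a1 stood at 580 and 616 against 563 and 505, and its difference of -0.16 (log2, SE 0.09, limma adjusted p = 0.148) did not pass. The 2 genes lower with the Chd4 hairpin were thus among those higher after IAA in CTCF AID cells, and the 2 that rose with it were those not called at 12 h or 24 h in the CTCF AID table without serum or overexpression. Scml2 and Trim7 were called higher with IAA in the overexpression control. Scml2 was also called higher with IAA in serum and with either added CTCF, and Trim7 lower with mutated CTCF. As 67.4% of all genes were called with the hairpin, nothing is read from this order of the 5 genes.

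**Figure D2:**
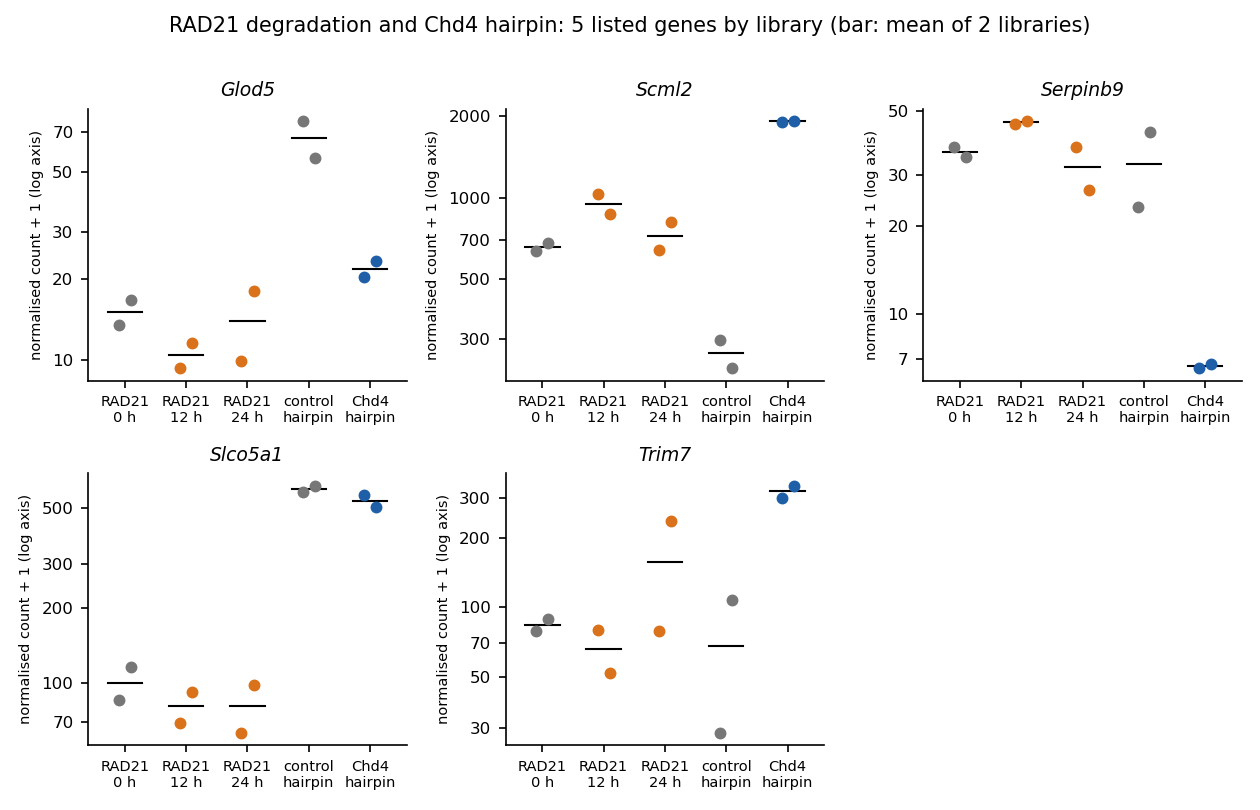
Normalised count plus 1 (log axis) of the 5 genes listed in the RAD21 AID and Chd4 hairpin tables, by library; the bar is the mean of 2 libraries, grey are the untreated or control hairpin libraries, orange RAD21 AID with 5-Ph-IAA and blue the Chd4 hairpin. The RAD21 groups of Slco5a1 overlap, and Scml2 sits at 1912 and 1917 with the Chd4 hairpin. Levels are comparable only within each of the 2 tables.

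Markers of other cell states were also called in the Chd4 hairpin libraries, where 67.4% of all genes were called. Of 9 pluripotency genes 7 were lower, among them Sox2 and Tdgf1, and the summed level of the list was 137411 and 135741 with the control and 83820 and 85223 with the Chd4 hairpin. Of 6 primitive endoderm genes 4 were higher, among them Gata6, Pdgfra and Dab2, and 2 lower, with sums of 102 and 119 against 965 and 943. All 4 tested genes of the two-cell-like state were higher, among them Zscan4c and Zscan4d. Of 15 germline genes 11 were higher and 3 lower, including Taf7l at 4.78 and Brdt at 4.11 on the log2 scale. The part of these shifts in the values of Scml2 and Trim7 was not tested, and fewer cells of a type cannot be told apart from less RNA per cell in bulk samples.

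In the overexpression cells all 6 genes were higher with IAA in the control, beside 25.3% of 13938 genes tested, again as a description of a CTCF loss contrast. Gnat1 went from 4.48 and 3.24 normalised counts to 160 and 222. With wild-type CTCF, Gnat1 had 12.6 and 0.707 without IAA and 64.2 and 55.1 with it, and with mutated CTCF 5.83 and 0.705 without and 66.4 and 86.1 with it. The mean of Gnat1 under IAA was thus 31.2% of the treated control with wild-type and 39.9% with mutated CTCF, and all 4 of these libraries lay below both treated control libraries. The SE of 0.84 on its log2 differences is the widest of the set, and neither difference from the treated control was called.

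The transcript of Ctcf marked the added gene, at 4134 and 4332 normalised counts in the control, 9275 and 9481 with wild-type CTCF and 9589 and 9712 with mutated CTCF, all without IAA. A degron acts on the protein, so this transcript does not check its loss. The 2 libraries titled mutated CTCF without IAA carry a treatment label of 12 h of IAA, and the 2 titled wild-type CTCF with IAA carry one of no IAA. Groups follow the titles. Cyp1a1, a target of the aryl hydrocarbon receptor, had 109 and 105 in the control without IAA and 883 and 833 with it. Of the other targets fitted there, Cyp1b1 was higher by 3.15 on the log2 scale (SE 0.34), Tiparp lower by -0.67 (SE 0.07), and Ahrr was not called. In the doubtful libraries Cyp1a1 had 142 and 138 where the title gives mutated CTCF without IAA, and 833 and 946 where it gives wild-type CTCF with IAA.

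Slco5a1 differed between the cells with wild-type and with mutated CTCF. It went from 207 and 221 to 742 and 722 in the control, from 248 and 238 to 383 and 409 with wild-type CTCF, and from 340 and 336 to 739 and 825 with mutated CTCF. Under IAA its level with wild-type CTCF was 54.1% of the treated control, and with mutated CTCF 107%. Mutated and wild-type CTCF under IAA differed by 0.98 (SE 0.09) on the log2 scale, a comparison added after the values were seen. Cyp1a1 was also higher with mutated CTCF there, at 1553 and 1429 against 833 and 946. It differed by 0.75 (SE 0.10) and was called, whereas Cyp1b1 (1.07, SE 0.34), Ahrr (0.26, SE 1.14) and Tiparp (-0.10, SE 0.07) were not. The part of this difference in the values of Slco5a1 and Glod5 was not tested. For Slco5a1 both mutated libraries also lay above both wild-type libraries without IAA. The IAA effect on Slco5a1 was 0.70 with wild-type and 1.20 with mutated CTCF (SE 0.09 each). Without IAA, Slco5a1 was already higher with mutated CTCF than in the control, by 0.66 (SE 0.09). Of the 6 genes 3 were called in that comparison (Slco5a1 higher, Scml2 and Serpinb9 lower), beside 5.55% of genes, and the calls of Scml2 and Serpinb9 were lost on leaving out any of the 4 libraries. With wild-type CTCF without IAA 1 was called (Scml2 lower), beside 0.897%, and this call was lost without the first control library or either wild-type library.

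Glod5 followed the same order under IAA, with 74.2 and 102 in the control, 38.5 and 47.4 with wild-type CTCF and 108 and 113 with mutated CTCF. Its libraries without IAA held 29.8 and 22.7, 25.0 and 38.4, and 55.0 and 42.9 in the same order of cells. Mutated and wild-type CTCF differed by 1.35 (SE 0.28) for Glod5 under IAA, and the libraries did not overlap. Glod5 and Slco5a1 were the members called in that comparison, beside 2.25% of all genes. The call of Glod5 was lost on leaving out any of the 4 libraries compared, without a mean trend and with only the groups compared.

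Serpinb9 and Scml2 did not separate the CTCF forms. Serpinb9 had 426 and 449 in the treated control, 284 and 273 with wild-type CTCF and 272 and 272 with mutated CTCF, all from between 51.1 and 80.4 without IAA. Its level under IAA was 63.7% and 62.3% of the treated control, and the forms differed by -0.03 (SE 0.13). Scml2 had 665 and 663 in the treated control, 334 and 242 with wild-type and 426 and 298 with mutated CTCF. Without IAA, however, Scml2 was also lower in the cells with added CTCF, at 83.1 and 95.3 with wild-type and 147 and 110 with mutated CTCF against 270 and 206 in the control. Its IAA effect was therefore nearly the same in all 3 kinds of cells, with log2 differences of 1.49, 1.66 and 1.48 (SE 0.22 each).

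Trim7 had another order of levels. It had 127 and 104 normalised counts without and 158 and 190 with IAA in the control, a log2 difference of 0.59 (SE 0.17). The call of Trim7 in the control was lost without the second untreated or the second treated control library (0.44 and 0.46 on the log2 scale) and with only these 2 groups in the fit. With wild-type CTCF it had 128 and 118 without IAA and 101 and 88.1 with it, and with mutated CTCF 138 and 159 without and 80.1 and 74.1 with it. The difference with wild-type CTCF, -0.38 (SE 0.17), was not called. The control cells of this table were the only ones in which Trim7 was called higher with IAA, and with mutated CTCF it was called lower, by -0.94 (SE 0.17). The IAA effect with mutated CTCF minus that in the control was -1.53 (SE 0.24) for Trim7, and -0.56 (SE 0.12) for Slco5a1, whose call was lost on leaving out any of the 8 libraries compared. With wild-type CTCF the same term was -1.07 (SE 0.12) for Slco5a1, the only one of the 6 called there, beside 1.41% of all genes. With mutated CTCF 2 of 6 were called, beside 1.64%. Both terms share the control contrast by which the genes were chosen, so these counts are given as a description.

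**Figure D3:**
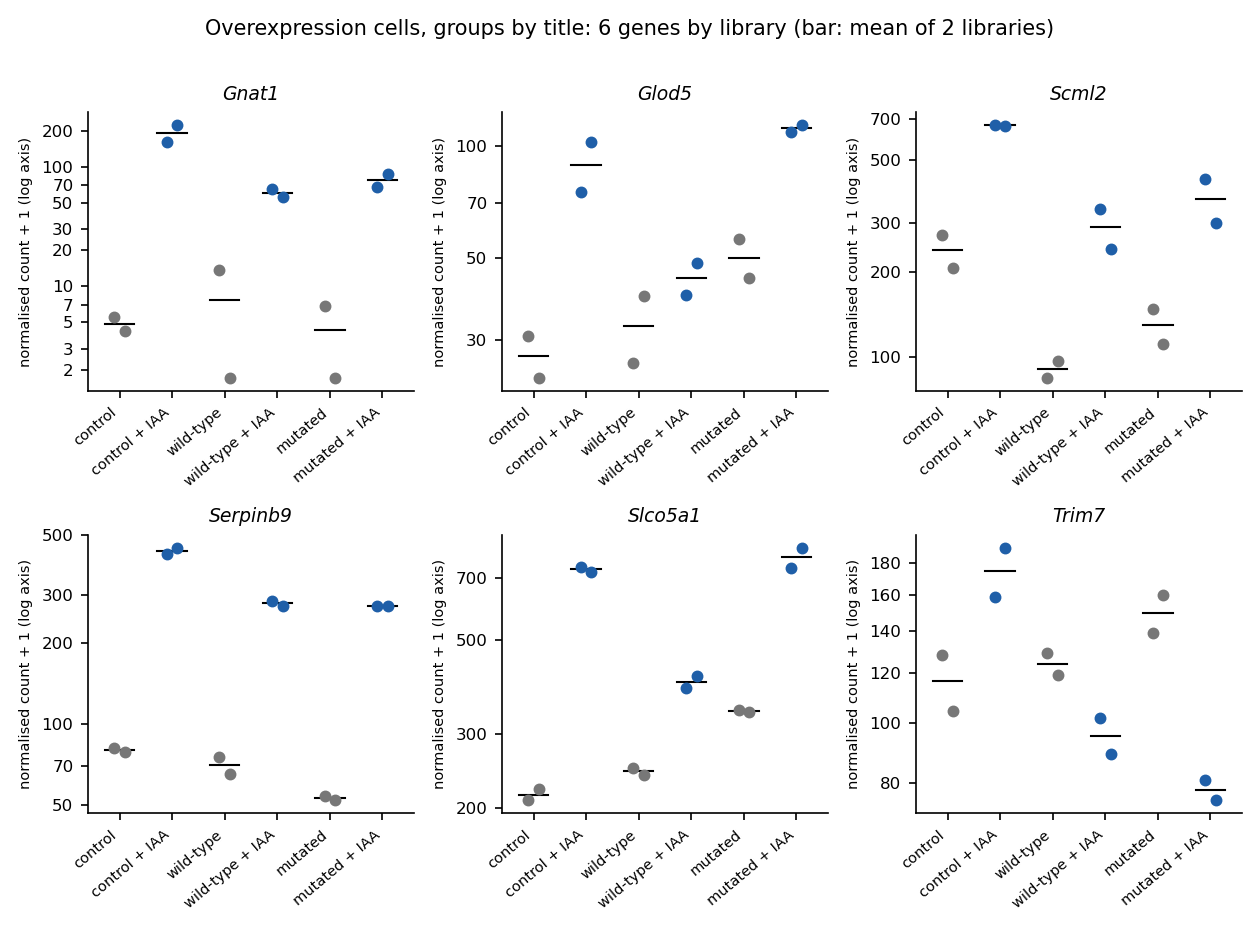
Normalised count plus 1 (log axis) of the 6 genes in each overexpression library, with groups by title; points are libraries, bars the mean of 2, grey without and blue with 12 h of IAA. Under IAA Slco5a1 and Glod5 are lower with wild-type than with mutated CTCF, Serpinb9 is alike with both, and Trim7 is lowest with mutated CTCF.

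Against the treated control, 4 of 6 genes were called lower with wild-type CTCF (Scml2, Serpinb9, Slco5a1 and Trim7), beside 6.26% of genes, and 3 of 6 with mutated CTCF (Scml2, Serpinb9 and Trim7), beside 6.5%. None of the 6 was called higher in either. With wild-type CTCF the call of Serpinb9 was lost on leaving out any library, that of Scml2 without either treated control or the second treated wild-type library, and that of Trim7 without the second treated library of either. With mutated CTCF Scml2 lost its call without either treated control or the second mutated library, and Serpinb9 without the second treated control or either mutated library. These comparisons share the treated control libraries with the contrast in which all 6 were higher, so they are not independent of it. With the groups of the 4 doubtful libraries taken from the treatment label, the second count was 0 in place of 3. With IAA against without, 4 of 6 were called with wild-type CTCF, all higher, beside 21.4% of genes, and 6 of 6 with mutated CTCF, 5 higher and Trim7 lower, beside 16.2%. The call of Gnat1 with wild-type CTCF was lost without the second untreated or either treated library, and so was that of Glod5 with mutated CTCF.

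Genes next to the members were counted in the same way. Protein-coding genes within 100 kb of a member numbered 33, of which 26 were tested in the CTCF AID table, and 9 of these (34.6%) were called at 12 h, 7 higher and 2 lower, beside 17.8% of all genes. In the overexpression control 6 of 28 tested neighbours (21.4%) were called with IAA, beside 25.3% of all genes. Within 500 kb 20 of 79 tested in the CTCF AID table at 12 h (25.3%) were called. Slc38a3, a glutamine transporter gene 5469 bases from Gnat1, had 12.5 and 1.85 normalised counts at 0 h and 56.9 and 43.4 at 12 h, and in the overexpression control 3.97 and 5.53 without and 63.1 and 38.6 with IAA. Serpinb9b, the paralogue 9459 bases from Serpinb9, had 69.1 and 52.7 at 0 h and 237 and 197 at 12 h. In the overexpression control it had 178 and 195 without and 182 and 164 with IAA, so the treated and untreated libraries of Serpinb9b overlapped there while those of Serpinb9 did not. The words shared with other genes make up 0.378% of Serpinb9.

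Other neighbours differed in direction. Sulf1, a heparan sulfatase gene 5357 bases from Slco5a1, had 629 and 656 at 0 h and 1194 and 1224 at 12 h, but in serum went from 1436 and 1354 to 1157 and 1084. Irgm1, an interferon-induced GTPase gene 14053 bases from Trim7, had 33.9 and 25.9 at 0 h and 76.8 and 57.4 at 12 h, where Trim7 itself was not called. Near Glod5 the called genes were lower: Eras, a Ras-like gene of embryonic stem cells, had 49.00 and 46.00 at 0 h and 5.92 and 11.1 at 12 h, and Suv39h1, a histone methyltransferase gene, had 476 and 503 and then 261 and 286. The remaining called neighbours, Gnai2, Ifrd2 and Rbm6, all near Gnat1, differed by at most 0.44 on the log2 scale. No neighbour of Scml2 was called at 12 h.

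With RAD21 degradation 4 of 21 tested neighbours (19.0%) were called at 12 h, beside 13% of all genes, and 0 of 21 at 24 h, beside 13.7%. The 4 were Gm15262 next to Scml2, higher by 1.15, Ifrd2 and Sema3b next to Gnat1, lower by -0.64 and -0.89, and Rack1 next to Trim7, higher by 0.08 on the log2 scale. Gm15262 had 174 and 154 normalised counts at 0 h and 348 and 384 at 12 h. With the Chd4 hairpin Gm15262 went from 116 and 119 to 1522 and 1288, and 20 of 27 tested neighbours (74.1%) were called, beside 67.4% of all genes. Gm15262 was thus higher in these 2 comparisons, as was Scml2, which lies 39638 bases away and whose RAD21 call was lost on leaving out any library. Scml2 was also called higher with IAA in serum, in the overexpression control and with either added CTCF. Of its neighbours only 1 was tested in serum and 2 in each overexpression comparison. In serum 0 were called, beside 17% of all genes, and in the control 0, beside 25.3%. With mutated CTCF 0 were higher and 1 lower, beside 16.2%, and with wild-type CTCF 1 higher and 1 lower, beside 21.4%. With so few tested, nothing is read from these counts. The relation between Gm15262 and Scml2 was not tested.

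**Figure D4:**
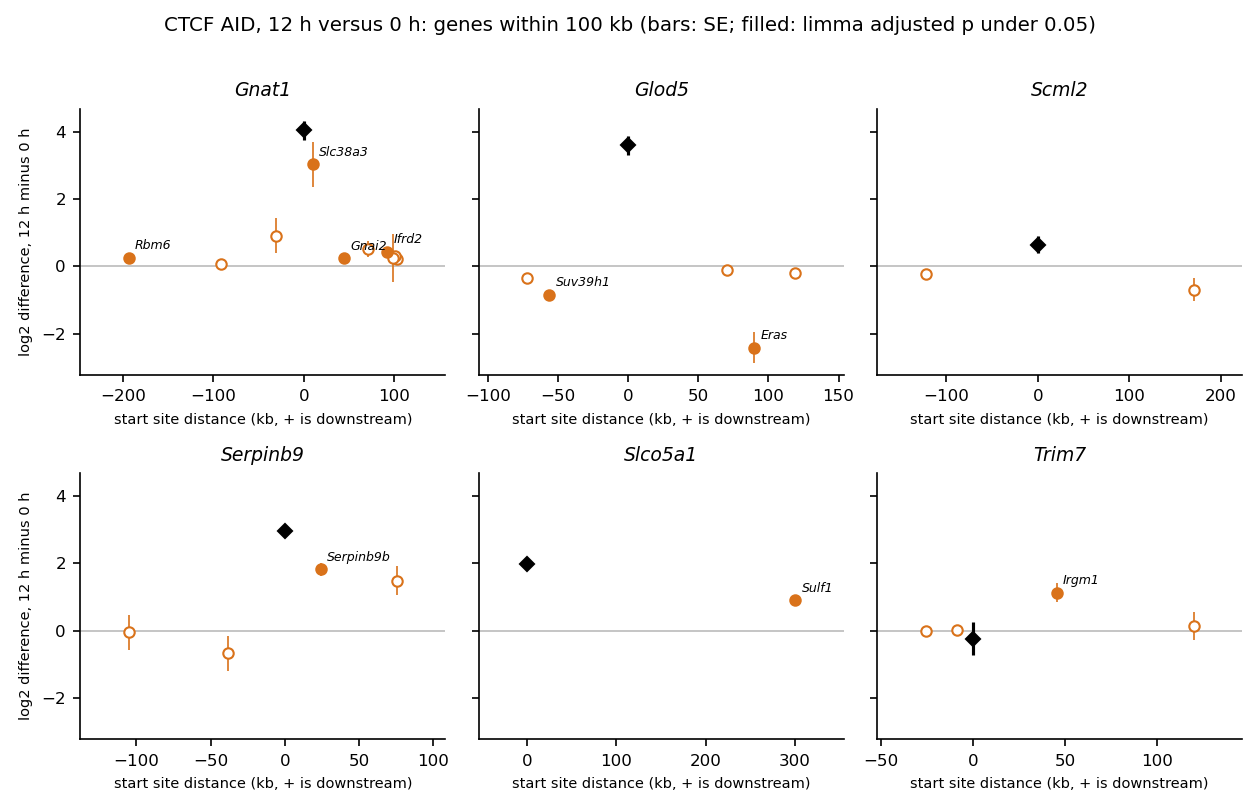
Log2 difference (12 h minus 0 h of IAA in CTCF AID cells, y axis) of each member (black) and of the tested protein-coding genes within 100 kb (orange) against the distance between start sites in kb (x axis, positive is downstream); bars are standard errors and filled circles passed an adjusted p under 0.05. Slc38a3 beside Gnat1 and Serpinb9b beside Serpinb9 are higher with their neighbour, and Eras near Glod5 is lower.

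Relatives of the members are given at 12 h of CTCF loss, where 17.8% of all genes were called. Of 7 tested clade B serpins of the chromosome 13 cluster 2 were higher, Serpinb9b by 1.82 and Serpinb6c by 0.62 on the log2 scale. Of 3 tested Slco genes 1, Slco4c1, was higher by 0.34, and of 6 tested glyoxalase-related genes Glo1 was higher by 0.16 and Hagh lower by -0.56. Of 20 Polycomb repressive complex 1 and SCM genes 0 were higher and 1, Pcgf3, lower by -0.30. Of 15 tested TRIM and glycogenin genes, Trim25 was higher by 0.18 and Gyg, the glycogenin gene, lower by -1.32.

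The genes most like a member were those with the highest mean of 2 Pearson r, over the 12 overexpression and the 6 CTCF AID libraries, among 13364 genes tested in both tables. These libraries share the IAA contrast, so the values only describe the pattern. For Serpinb9 they were Dtwd2 (0.991), Tgfbr3 (0.982) and Mnd1 (0.981), for Slco5a1 Tbc1d8 (0.984), Rgma (0.981) and Snx18 (0.98), and for Gnat1 Nabp2 (0.97), Ifitm2 (0.967) and Arid3a (0.967). Glod5 was most like Snx18 (0.966), Atp2b4 (0.966) and Eya1 (0.959), so Snx18 stood near both Glod5 and Slco5a1. Scml2 had Ndufs8 (0.944), Arhgdia (0.937) and Vti1a (0.927). Trim7 had no gene as near, with Zfp423 (0.864), Nfkbib (0.84) and Coq8b (0.807). Among the members, the r of Glod5 with Slco5a1 was 0.943 over the overexpression libraries and that of Gnat1 with Serpinb9 was 0.957, whereas Trim7 had r between -0.17 and 0.0143 with the other 5 there.

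Over the whole series, library totals of the normalised counts lay between 15364584 and 19642332, and all 9 pluripotency markers were listed in every table. Markers also moved with CTCF loss. In serum 6 of 9 pluripotency markers were lower, beside 17% of all genes called. Their sums were 83729 and 84059 without IAA and 72967 and 74255 with it. In the CTCF AID table without serum or overexpression 2 were higher and 2 lower at 12 h (104506 and 103714, then 101510 and 101493). There 2 of 4 two-cell-like genes were lower (321 and 360, then 207 and 200), beside 17.8% of all genes called. Trophoblast sums there fell from 1413 and 1396 to 1092 and 1187 at 12 h, and neural sums rose from 1922 and 1978 to 2568 and 2479. Primitive endoderm and fibroblast sums overlapped there. In the overexpression control, neural sums went from 2191 and 2260 to 3694 and 3575 with IAA. Primitive endoderm sums went from 64.4 and 42.4 to 107 and 121. Trophoblast sums rose from 1458 and 1386 to 1846 and 1789, the direction opposite to that in the cells without serum or overexpression. Pluripotency sums fell from 131815 and 130826 to 126675 and 127658, and two-cell-like and fibroblast sums overlapped. The part of these shifts in the members' values was not tested. Cyp1a1 moved with IAA in each CTCF AID table: 101 and 78.1 at 0 h against 981 and 1050 at 12 h, and 5.31 and 8.48 against 25.2 and 29.0 in serum. In RAD21 AID cells, given the other auxin, Cyp1a1 had 18.7 and 17.99 at 0 h and 23.4 and 26.4 at 12 h (log2 difference 0.42, SE 0.37, limma adjusted p = 0.487). It was also higher with the Chd4 hairpin, at 506 and 528 against 168 and 144. Cyp1b1 and Ahrr were also called higher at 12 h in the CTCF AID table without serum or overexpression, and with the Chd4 hairpin. Tiparp was called higher at 12 h there (0.32 on the log2 scale), but not in serum (0.06) or with the Chd4 hairpin (-0.12). The part of these targets in the values of the 6 genes was not tested. The kind of auxin and the protein lost cannot be told apart in these groups.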

How the data were processed

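RNA sequencing libraries of polyadenylated RNA were made with a VAHTS Universal V8 kit, per the labels' protocols. The authors deposited 5 tables of normalised counts, a signal that is never negative. The submitters' processing notes name Trim Galore, Bowtie2, STAR, RSEM, DESeq2 and the build mm10 without role or version, and strand use is not given in the sources used here. Genes with a table mean of at least 10 were fitted as log2(value + 1) with limma (version 3.58.1, R version 4.3.3), each table in a joint fit of all its groups, with a mean trend, no replicate block and Benjamini-Hochberg adjustment over all genes tested. A gene was called at an adjusted p under 0.05. Tables were normalised separately, so tests stay within a table. The values are not counts, so depth behind a value is unknown, and the smallest two-sided p of an exact permutation test over 2 and 2 libraries is 0.333. Fitting was tested on simulated data whose libraries spread less than those of Trim7 did, so that test does not cover such genes.

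The last line of the CTCF AID table breaks off and was dropped. Alternatives were other pseudocounts, filters, scalings and variance models, a replicate block, groups from the treatment label and leaving out each library. Members, lists and tests were chosen with earlier results of these data known. Members are named always, neighbours and list genes by whether they were called (at most 4 per list), like genes as the 3 highest mean r. Ctcf, Chd4, Rad21, Cyp1a1, Cyp1b1, Ahrr, Tiparp, Gm12184, Gm16170, Cdk2ap1 and 3 overexpression comparisons were added after values were seen. One list of relatives of Gnat1 is not reported here. Positions come from GENCODE M21 (GRCm38), with identifiers matched without version. Lists of trophoblast, neural and fibroblast genes were also counted: at 12 h of CTCF loss 1 of 3, 1 of 3 and 0 of 2 tested were called.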

Additional observations from a re-analysis of the deposited data

Results flagged for a closer look

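The effect of IAA on Slco5a1 differed between control cells and those with wild-type CTCF, by -1.07 on the log2 scale (SE 0.12). Both treated wild-type libraries lay below both treated control libraries. For mutated CTCF the difference of Slco5a1 was -0.56 (SE 0.12), and it was accompanied by a higher level without IAA. That call was lost on leaving out any library compared. The effect of IAA on Trim7 differed between control and mutated CTCF by -1.53 (SE 0.24), being positive in the control and negative with mutated CTCF. These 3 were picked out because the difference between 2 groups' effects itself passed the threshold. They share the control libraries in which the genes were chosen to be high, so they are a description and no test is read from them.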

How the results depend on the processing

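Of 1243 results for single genes under the alternatives, 1128 kept direction and side of the threshold, 84 no longer passed, 9 newly passed and 22 changed sign. The number of the 6 genes called fell from 4 to 0 in serum without a mean trend, and for RAD21 at 12 h from 1 to 0 without a mean trend and under the replicate block. For the mutated CTCF interaction it fell from 2 to 1 with a pseudocount of 5, without a mean trend, under the replicate block and with only the groups compared. With the treatment label in place of the title, mutated CTCF against the control under IAA called 0 in place of 3, with Glod5 at -0.24 and Slco5a1 at -0.51. With a table mean of at least 50 the Chd4 count went from 4 to 2, since Glod5 and Serpinb9 are then not tested. Elsewhere the cause was not tested. The replicate numbers did not pair the libraries: same-numbered deviations correlated between -0.0634 and 0.102 in all tables, and the block moved no other count by over 1.5 times.

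Leaving out 1 library at a time gave counts of 2 to 5 in serum, 0 to 0 for RAD21 at 12 h and 0 to 1 at 24 h, 1 to 3 for wild-type and 1 to 2 for mutated CTCF against the control under IAA, 1 to 1 for both interactions, and 1 to 4 for Chd4. In serum the low count came without either treated library, for wild-type CTCF without either treated control library or the second treated wild-type library, for mutated CTCF without the second treated control or second treated mutated library, for the mutated interaction without any of the 8 libraries, and for Chd4 without the first Chd4 hairpin library. Signs changed, on leaving out 1 library, for Trim7 at 12 h of CTCF loss (-1.08 to 0.62) and in serum (-1.40 to 0.054). At 24 h of RAD21 loss they changed for Glod5 (-0.60 to 0.26), Scml2 (-0.043 to 0.30), Serpinb9 (-0.43 to 0.050) and Trim7 (-0.093 to 1.497). The wild-type interaction of Scml2 ran from -0.060 to 0.41 (-0.02 without the first control library). The mutated interaction ran from -0.27 to 0.25 for Scml2 (0.18 and 0.20 without the second control and first mutated library) and from -1.81 to 0.19 for Gnat1. Without IAA, wild-type CTCF against the control ran from -1.497 to 1.495 for Gnat1 (0.18 without the first control library), -0.053 to 0.55 for Glod5 and -0.050 to 0.25 for Trim7, and mutated CTCF from -1.499 to 0.50 for Gnat1. With quantile normalisation Serpinb9 differed by 0.011 between mutated and wild-type CTCF under IAA, and Gnat1 by 0.14 between wild-type and control without IAA (0.18 with a pseudocount of 5).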
